A study of Mus musculus with 6 samples.

Results

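The genes described here control the phosphorylation of eIF2 alpha, the switch of the integrated stress response, in brains of E4f1 knockout and wild-type mouse embryos. They are the 4 eIF2 alpha kinases Eif2ak1, Eif2ak2, Eif2ak3 and Eif2ak4, their substrate Eif2s1, the exchange factor subunit Eif2b5, the phosphatase subunits Ppp1r15a and Ppp1r15b, and the mitochondrial protease gene Oma1. They were taken from the tables by gene symbol, from a list written with earlier results of these data known, and make up 9 of the 24848 genes listed. All 9 were among the 15848 genes with enough counts to be tested. Messenger RNA libraries were made from E14.5 (embryonic day) brains of 3 E4f1 knockout (KO) and 3 wild-type (WT) embryos, each labelled with its own animal number. E4f1 encodes a zinc finger protein first described at an adenovirus promoter and later at promoters of mitochondrial and cell cycle genes. The labels do not give the exons removed, any Cre driver, the litter or the strain of either group.

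Phosphorylation of eIF2 alpha turns eIF2 from a substrate of its exchange factor eIF2B into an inhibitor of it, which lowers the start of translation on most mRNAs while a few, Atf4 among them, are translated more. Each kinase answers to its own signal: heme shortage and mitochondrial stress for Eif2ak1 (HRI), double-stranded RNA for Eif2ak2 (PKR), unfolded protein in the endoplasmic reticulum for Eif2ak3 (PERK), and uncharged tRNA and stalled ribosomes for Eif2ak4 (GCN2). Ppp1r15a (GADD34) and Ppp1r15b (CReP) bring protein phosphatase 1 to eIF2 alpha and reverse the mark. These data measure mRNA and hold no measurement of kinase activity or of phosphorylated eIF2 alpha.

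The libraries held 50186590 to 69068011 expected counts in KO and 42113465 to 74064707 in WT. E4f1 itself was at 7.12, 7.01 and 6.92 CPM in KO 1, 2 and 3, against 20.7, 21.6 and 21.5 CPM in WT 1, 2 and 3, a fall by 1.60 ± 0.08 on the log2 scale (SE, edgeR adjusted p = 0.00142). CPM are counts brought to a common library total after TMM scaling. The summed levels of several cell type markers also differed with genotype, and their part in the results was not tested. The summed level of 8 neuronal markers was 5034 to 5508 CPM in KO against 6246 to 7356 CPM in WT, and the groups did not overlap. Of these, Tubb3, Dcx, Stmn2 and Map2 were lower in KO without overlap, while Syt1, Snap25, Neurod6 and Rbfox3 overlapped, with log2 fold changes of -0.28, 0.20, 0.17 and -0.00288. Summed microglial markers (10 genes, 2 of them called) were at 124 to 176 CPM in KO and 68.9 to 105 CPM in WT, and summed endothelial markers (8 genes, 0 called) at 290.2 to 402 CPM in KO and 222 to 266 CPM in WT. Among single genes, the microglial P2ry12 and Tmem119 and the endothelial Cdh5 and Emcn overlapped between the groups. The midbrain markers En1, En2 and Pax5 summed to 0.266 to 1.61 CPM in KO and 3.07 to 69.9 CPM in WT. Their mean log2 CPM served below as a midbrain score. The groups did not overlap in these markers, so midbrain marker level went with genotype. How far a fit with that score can tell them apart was not measured. KO 3 stood apart by its meningeal and mesenchymal markers, which summed to 5288 CPM there, against 472 and 661 CPM in KO 1 and KO 2 and 589 to 2706 CPM in WT. Summed radial glial markers overlapped, at 1413 to 1617 CPM in KO and 1294 to 1803 CPM in WT. Of these genes Fabp7 was lower in KO without overlap (log2 fold change -0.58, adjusted p 0.0555 by edgeR and 5.74e-06 by DESeq2). Hes1 was higher without overlap (0.53), and the others overlapped. No marker of these lists was at 0 in all 6 libraries.

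Across the 9 genes the differences were small. Ppp1r15a, Ppp1r15b and Eif2ak4 had the largest positive log2 fold changes, and Eif2ak1 the most negative one. By edgeR's quasi-likelihood test 0 of the 9 passed an adjusted p of 0.05, where 1.003% of all tested genes did, and the smallest adjusted p among them was 0.0851. At an unadjusted p below 0.05, 4 of the 9 passed (19.6% of all tested genes), 3 of them higher in KO (10.3%) and 1 lower (9.31%). By DESeq2, a second count test, 3 of the 9 passed an adjusted p of 0.05, 3 higher and 0 lower in KO, where 9.12% of all genes passed, 4.95% as higher and 4.17% as lower. The 3 KO libraries did not overlap the 3 WT libraries for 6 of the 9 genes (27.6% of all tested genes), with KO higher for 4 (14.6%) and lower for 2 (12.97%). The median log2 fold change of the 9 was 0.15, against -0.000767 over all tested genes. The median of the 9 was 0.095 without KO 3 and 0.0027 with KO 1, KO 2, WT 1 and WT 2 only. The value of 0.0027 is that of Eif2s1, and Eif2ak2 was at -0.030 in that fit. With those libraries Ppp1r15a was still at 0.44, Eif2ak4 at 0.35, Ppp1r15b at 0.33 and Eif2ak1 at -0.18. The DESeq2 calls depended on single libraries: DESeq2 called 0 of the 9 without KO 1, 0 without KO 3, 3 without KO 2 or without WT 1, and 2 (Eif2ak4 and Ppp1r15b) without WT 2 or without WT 3.

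**Figure D1:**
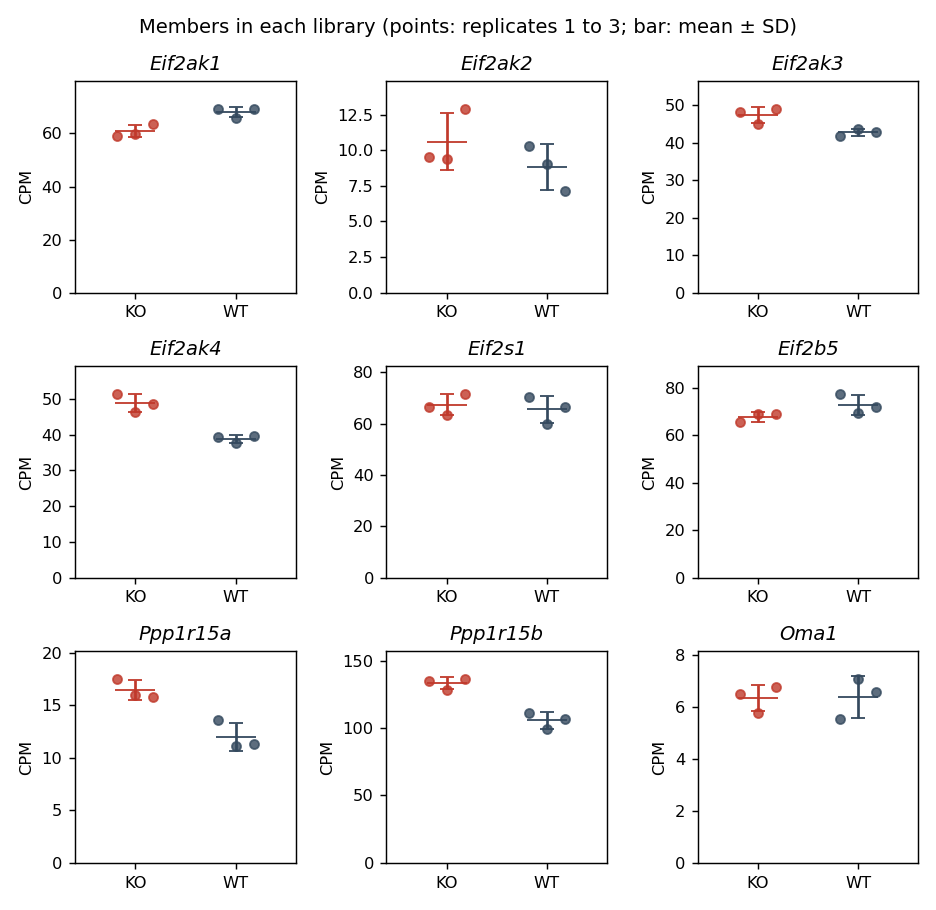
Level of each of the 9 genes in CPM after TMM scaling (vertical axis, from 0) in the 3 KO libraries (red, left) and the 3 WT libraries (blue, right), with the mean and SD as bars. KO and WT points separate for Eif2ak4, Ppp1r15a and Ppp1r15b, which lie higher in KO, and for Eif2ak1, which lies lower, and more narrowly for Eif2ak3 (higher in KO) and Eif2b5 (lower).

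Among the kinases, Eif2ak4 was higher in KO and Eif2ak1 was lower, with Eif2ak3 and Eif2ak2 between them. Eif2ak4 (chr2:118388583-118475234, plus strand, GRCm38.p6), which encodes the amino acid sensor GCN2, was at 51.4, 46.4 and 48.7 CPM in KO 1, 2 and 3, against 39.3, 37.6 and 39.6 CPM in WT 1, 2 and 3. The 3 KO brains were all above the 3 WT brains, and the lowest KO library exceeded the highest WT library by more than the spread within WT. The means were 48.8 ± 2.49 CPM in KO and 38.8 ± 1.09 CPM in WT (SD, n = 3 each), a log2 fold change of 0.33 ± 0.07 (SE, 95% interval 0.17 to 0.49) with an edgeR adjusted p of 0.0857. DESeq2 gave the same gene 0.33 with an adjusted p of 0.00484, and 0.0992 without KO 1 and 0.0704 without KO 3. Its mean transcript length as estimated by RSEM stayed within 5124 to 5171 bases over the 6 libraries.

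Eif2ak1 (chr5:143817792-143902717, plus strand), the heme-regulated inhibitor that is abundant in red cell precursors, was at 59.2, 60.0 and 63.7 CPM in KO 1, 2 and 3, against 69.4, 66.0 and 69.3 CPM in WT 1, 2 and 3. It was the only kinase gene whose KO libraries all lay below the WT libraries. The means were 61.0 ± 2.40 CPM in KO and 68.2 ± 1.94 CPM in WT (SD, n = 3 each), and the log2 fold change was -0.16 ± 0.06 (SE, 95% interval -0.31 to -0.02), with adjusted p-values of 0.224 by edgeR and 0.183 by DESeq2. Erythroid markers (11 genes, 0 called) summed to 703 to 1003 CPM in KO and 314 to 894 CPM in WT and overlapped. Their members were mixed: the adult globin genes Hba-a1, Hba-a2, Hbb-bs and Hbb-bt were higher in KO without overlap (log2 fold changes 0.82, 0.69, 1.25 and 0.82), and the embryonic globin genes Hbb-bh1, Hbb-y and Hba-x had log2 fold changes of -1.54, -2.89 and -1.64, with overlap. WT 1 alone held 374 CPM of Hbb-y, against 9.42 to 28.2 CPM in KO and 1.65 and 10.4 CPM in WT 2 and WT 3. The part of these cells in the result was not tested. In bulk tissue, fewer cells of a type and less RNA per cell cannot be told apart. Aimp2, a tRNA synthetase scaffold gene on the opposite strand, shares 487 bases of exon with Eif2ak1. The strand setting of the counting is not given in the sources used here, so shared reads cannot be told apart. Aimp2 averaged 19.5 CPM in KO and 21.2 CPM in WT.

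Eif2ak3 (chr6:70844484-70905241, plus strand), the sensor kinase of the endoplasmic reticulum, was at 48.1, 45.0 and 49.1 CPM in KO 1, 2 and 3, against 41.7, 43.7 and 42.8 CPM in WT 1, 2 and 3. The groups did not overlap, and KO 2 lay closest to the WT libraries. The log2 fold change was 0.15 ± 0.06 (SE, 95% interval -0.01 to 0.30), with adjusted p-values of 0.267 by edgeR and 0.236 by DESeq2. Gm43292, on the opposite strand and not among the genes listed, shares 485 bases of exon with Eif2ak3, and shared reads cannot be told apart.

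Eif2ak2 (chr17:78850504-78882572, minus strand), the double-stranded RNA sensor PKR and an interferon-induced gene, was the least abundant kinase, at 9.51, 9.39 and 12.9 CPM in KO 1, 2 and 3, against 10.3, 9.05 and 7.14 CPM in WT 1, 2 and 3. KO 3 was the highest library and WT 3 the lowest, and the other four overlapped. The log2 fold change was 0.26 ± 0.19 (SE, 95% interval -0.20 to 0.73; edgeR adjusted p = 0.481). It was 0.095 without KO 3, 0.13 without WT 3 and 0.77 with the midbrain score as a covariate. Interferon response genes also overlapped between the groups, at a summed 90.2 to 102 CPM in KO and 84.6 to 112 CPM in WT. Gm26637 and n-R5s29, on the opposite strand and not among the genes listed, share 174 and 47 bases of exon with Eif2ak2.

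Per transcript length, the total kinase mRNA was near equal while its make-up differed. TPM, which scales counts to transcript length, allows levels of different genes to be compared. The 4 kinases summed to 124, 119 and 126 TPM in KO 1, 2 and 3, against 125, 122 and 124 TPM in WT 1, 2 and 3, and the ranges overlapped. Of that sum, Eif2ak1 made up 51.1%, 53.5% and 52.5% in KO, against 59.3%, 58.3% and 59.7% in WT. Eif2ak4 made up 21.3%, 19.7% and 19.2% in KO, against 16.0%, 15.9% and 16.2% in WT. Eif2ak1 thus held the majority of kinase mRNA in all 6 brains, with a difference in share of -6.74 percentage points, while the shares of Eif2ak4 (20.05% ± 1.10 in KO and 16.05% ± 0.163 in WT, SD) and Eif2ak3 (22.4% ± 0.503 in KO and 20.5% ± 0.747 in WT, SD) were larger in KO. For these 3 kinases the groups did not overlap and the two-sided exact permutation p was 0.1, the smallest that 3 against 3 can give, or 0.15 after Benjamini-Hochberg adjustment over 6 such measures. The share of Eif2ak2 overlapped, at 5.20% ± 0.782 in KO and 4.38% ± 0.780 in WT (SD; exact permutation p = 0.4). The 4 shares sum to the whole, so a smaller share of one makes the others larger.

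**Figure D2:**
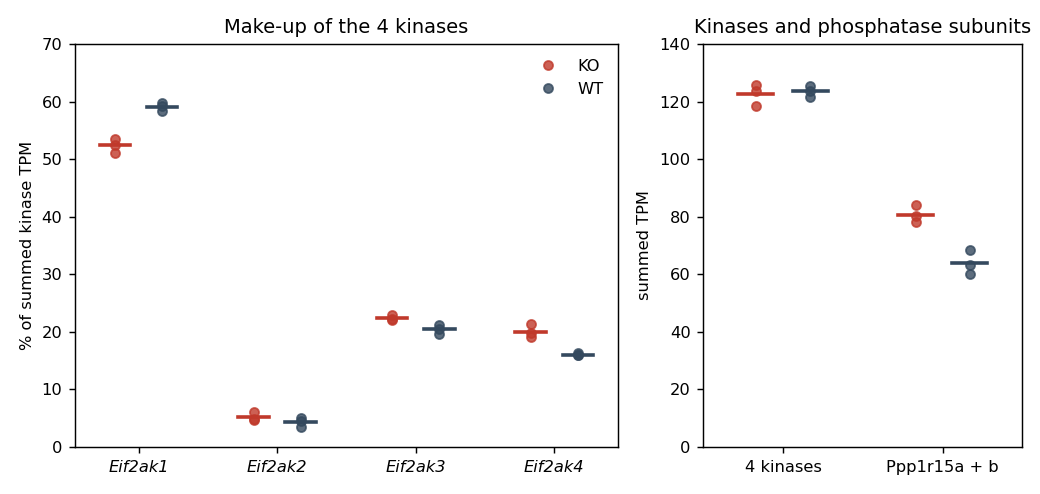
Left, share of each kinase gene in the summed TPM of the 4 kinases (%), and right, the summed TPM of the 4 kinases and of Ppp1r15a plus Ppp1r15b, with 3 KO libraries (red, left of each pair) and 3 WT libraries (blue) as points and the mean as a line. The Eif2ak1 share averages 52.4% in KO and 59.1% in WT, and the summed phosphatase subunits 80.7 TPM in KO and 63.9 TPM in WT.

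The phosphatase subunits were both higher in KO. Ppp1r15b (chr1:133131166-133139800, plus strand), the constitutive subunit CReP, was at 135, 128 and 136 CPM in KO 1, 2 and 3, against 111, 99.2 and 107 CPM in WT 1, 2 and 3. The KO and WT brains did not overlap. The means were 133 ± 4.60 CPM in KO and 106 ± 6.18 CPM in WT (SD, n = 3 each), a log2 fold change of 0.33 ± 0.07 (SE, 95% interval 0.17 to 0.49). The adjusted p was 0.0851 by edgeR and 0.00410 by DESeq2, with DESeq2 giving 0.112 without KO 1 and 0.0825 without KO 3. Leaving out KO 3 left edgeR's log2 fold change at 0.31 for Ppp1r15b, 0.33 for Eif2ak4 and 0.48 for Ppp1r15a. On the opposite strand, Gm26616 shares 640 bases of exon with Ppp1r15b and is not among the genes listed. Reads shared by the pair cannot be told apart.

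Ppp1r15a (chr7:45522917-45526268, minus strand), the stress-inducible subunit GADD34 and itself a gene switched on by ATF4, was at 17.5, 16.0 and 15.8 CPM in KO 1, 2 and 3, against 13.6, 11.2 and 11.3 CPM in WT 1, 2 and 3. The groups did not overlap, and WT 1 was the highest of the WT brains. The means were 16.4 ± 0.938 CPM in KO and 12.002 ± 1.35 CPM in WT (SD, n = 3 each), a log2 fold change of 0.45 ± 0.11 (SE, 95% interval 0.18 to 0.73), with adjusted p-values of 0.125 by edgeR and 0.0143 by DESeq2. Without 1 library DESeq2 gave 0.196 (KO 1 left out), 0.0683 (KO 3), 0.0538 (WT 2) and 0.124 (WT 3). Ppp1r15a is also rapidly induced by handling and growth signals. The summed level of 14 immediate early genes was 242.2 to 294 CPM in KO against 176 to 222 CPM in WT, without overlap. Jun, the largest of them, was at 93.0 to 117 CPM in KO and 65.1 to 91.5 CPM in WT. Fos, Fosb, Egr1, Ier2, Dusp1, Btg2 and Klf4 overlapped between the groups. The part of immediate early genes in the result was not tested. The neighbour Tulp2 shares 12 exonic bases with Ppp1r15a, and Plekha4 starts 62 bases away on the other strand.

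The ratio of kinase to phosphatase subunit mRNA was lower in KO, and that between the phosphatase subunits overlapped. Ppp1r15a and Ppp1r15b together were at 84.0, 78.0 and 80.1 TPM in KO 1, 2 and 3, against 68.5, 60.1 and 63.2 TPM in WT 1, 2 and 3. The ratio of summed kinase TPM to this sum was 1.47, 1.52 and 1.57 in KO, against 1.83, 2.02 and 1.96 in WT, so that every KO brain held less kinase mRNA per phosphatase subunit mRNA than any WT brain. On the log2 scale the difference was -0.35, with an exact permutation p of 0.1, the smallest possible with 3 brains in each group, and 0.15 adjusted over the 6 measures. The log2 ratio of Ppp1r15a to Ppp1r15b was -1.61, -1.66 and -1.76 in KO and -1.69, -1.81 and -1.90 in WT, which overlapped (exact permutation p = 0.2, adjusted 0.24).

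Promoter sequence is shown for Ppp1r15a and Eif2ak4, which had DESeq2 calls, and for Eif2ak2, which carries a textbook interferon element. RefSeq promoter windows of 300 bases (GRCm38.p6, 250 before the start and 50 from it) were found for 8 of the 9 genes, Ppp1r15b being the one without. Capitals mark matches, on either strand, to TGACGTCA (the cAMP response element of the CREB and ATF family), TGACGTAA (a form described for E4F1), TGATGNAA (the composite element read by ATF4 with C/EBP partners), the core of the interferon-stimulated response element (GAAA, any 2 bases, GAAA) or the endoplasmic reticulum stress element (CCAAT, any 9 bases, CCACG).
Ppp1r15a chr7:45526219-45526518, minus strand: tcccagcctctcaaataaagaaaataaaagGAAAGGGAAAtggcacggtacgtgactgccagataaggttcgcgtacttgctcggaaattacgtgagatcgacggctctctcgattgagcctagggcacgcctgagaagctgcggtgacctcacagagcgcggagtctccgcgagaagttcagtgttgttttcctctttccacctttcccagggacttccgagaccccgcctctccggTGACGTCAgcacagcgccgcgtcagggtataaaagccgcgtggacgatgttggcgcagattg
Eif2ak4 chr2:118388367-118388666, plus strand: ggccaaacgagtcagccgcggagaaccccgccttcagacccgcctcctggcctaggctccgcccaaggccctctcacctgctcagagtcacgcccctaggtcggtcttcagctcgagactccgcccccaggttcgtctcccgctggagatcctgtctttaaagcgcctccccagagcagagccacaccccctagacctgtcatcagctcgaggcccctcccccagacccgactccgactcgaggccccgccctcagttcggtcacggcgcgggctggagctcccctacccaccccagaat
Eif2ak2 chr17:78882523-78882822, minus strand: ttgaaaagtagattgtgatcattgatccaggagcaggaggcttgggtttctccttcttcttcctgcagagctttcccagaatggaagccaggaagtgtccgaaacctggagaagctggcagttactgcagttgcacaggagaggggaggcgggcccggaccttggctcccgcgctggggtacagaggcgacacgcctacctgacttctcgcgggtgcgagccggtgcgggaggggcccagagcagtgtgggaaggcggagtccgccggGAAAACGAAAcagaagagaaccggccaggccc
Ppp1r15a was the only one of the 8 with TGACGTCA, beginning 12 bases before its start, a match that 1.79% of all 32851 windows hold. The interferon core, present in 3.44% of windows, matched in Ppp1r15a as GAAAGGGAAA, in Eif2ak2 as GAAAACGAAA within the transcribed part, and in Eif2s1 as GAAACAGAAA. The other sequences had no match in the windows of the 8 genes, where 3.97% of all windows hold TGATGNAA, 0.499% hold TGACGTAA and 0.119% hold the stress element. RefSeq gives Eif2ak4 a pair of windows, of which the one at the upstream start is printed, and neither holds a match. Several motifs overlap in letters, since TGACGTCA and TGACGTAA differ at a single base, and a match shows only that the letters are present.

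The substrate eIF2 and its exchange factor showed no edgeR call. Eif2s1 (chr12:78862072-78887010, plus strand), which encodes eIF2 alpha, was at 66.7, 63.6 and 71.7 CPM in KO 1, 2 and 3, against 70.4, 60.0 and 66.6 CPM in WT 1, 2 and 3. The groups were interleaved, and the log2 fold change was 0.03 ± 0.08 (SE, 95% interval -0.17 to 0.24; edgeR adjusted p = 0.843). Eif2s2, the beta subunit of the same complex, was at 150, 144 and 160 CPM in KO 1, 2 and 3, against 124, 109 and 118 CPM in WT 1, 2 and 3. The groups did not overlap for Eif2s2, whose log2 fold change was 0.37 ± 0.08 (SE, 95% interval 0.19 to 0.55), with adjusted p-values of 0.0877 by edgeR and 0.00410 by DESeq2. The gamma subunit gene Eif2s3x varied more, at 146, 94.8 and 144 CPM in KO and 134, 86.5 and 94.4 CPM in WT (log2 fold change 0.29 ± 0.23, edgeR adjusted p = 0.511). Its Y-linked copy Eif2s3y was at 48.4 CPM in KO 2 and at 48.2 and 42.1 CPM in WT 2 and WT 3, and at 0.0196 CPM or 0 in the other brains. By this gene KO 2, WT 2 and WT 3 read as male and KO 1, KO 3 and WT 1 as female. Eif2s3x was higher in each brain read as female than in any read as male. The groups were thus not balanced for sex, which no fit included, and its part in the results was not tested.

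Eif2b5 (chr16:20498795-20509325, plus strand), the catalytic epsilon subunit of eIF2B and a gene of vanishing white matter disease in humans, was at 65.3, 68.7 and 68.7 CPM in KO 1, 2 and 3, against 77.4, 69.1 and 71.8 CPM in WT 1, 2 and 3. The KO brains all lay below the WT brains, but by less than 1 CPM at the closest pair. The log2 fold change was -0.11 ± 0.07 (SE, 95% interval -0.27 to 0.05; edgeR adjusted p = 0.413). It was -0.061 without WT 1, -0.043 with libraries scaled to their totals alone and -0.022 with the midbrain score as a covariate. The other eIF2B subunits had log2 fold changes of -0.13 ± 0.09 for Eif2b1, 0.00 ± 0.10 for Eif2b2, 0.14 ± 0.08 for Eif2b3 and 0.01 ± 0.07 for Eif2b4 (SE), with edgeR adjusted p-values of 0.375 or more. The catalytic subunits of protein phosphatase 1, which PPP1R15 proteins recruit, differed as little, with log2 fold changes of -0.01 ± 0.09 for Ppp1ca, -0.08 ± 0.11 for Ppp1cb and -0.04 ± 0.10 for Ppp1cc (SE; edgeR adjusted p 0.713 to 0.953).

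Oma1 (chr4:103311875-103371869, plus strand) encodes the inner mitochondrial membrane protease that cleaves DELE1, whose fragment activates Eif2ak1. It was at 6.50, 5.76 and 6.76 CPM in KO 1, 2 and 3, against 5.52, 7.08 and 6.56 CPM in WT 1, 2 and 3. The groups overlapped fully, and the log2 fold change was -0.01 ± 0.15 (SE, 95% interval -0.36 to 0.35; edgeR adjusted p = 0.978), an interval that leaves room for a change of the size seen for Eif2ak4. The Dele1 gene, listed as 0610009O20Rik, was at 43.8, 44.8 and 40.4 CPM in KO and 45.5, 42.0 and 43.9 CPM in WT, with a log2 fold change of -0.03 ± 0.07 (SE, 95% interval -0.20 to 0.14; edgeR adjusted p = 0.850).

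**Figure D3:**
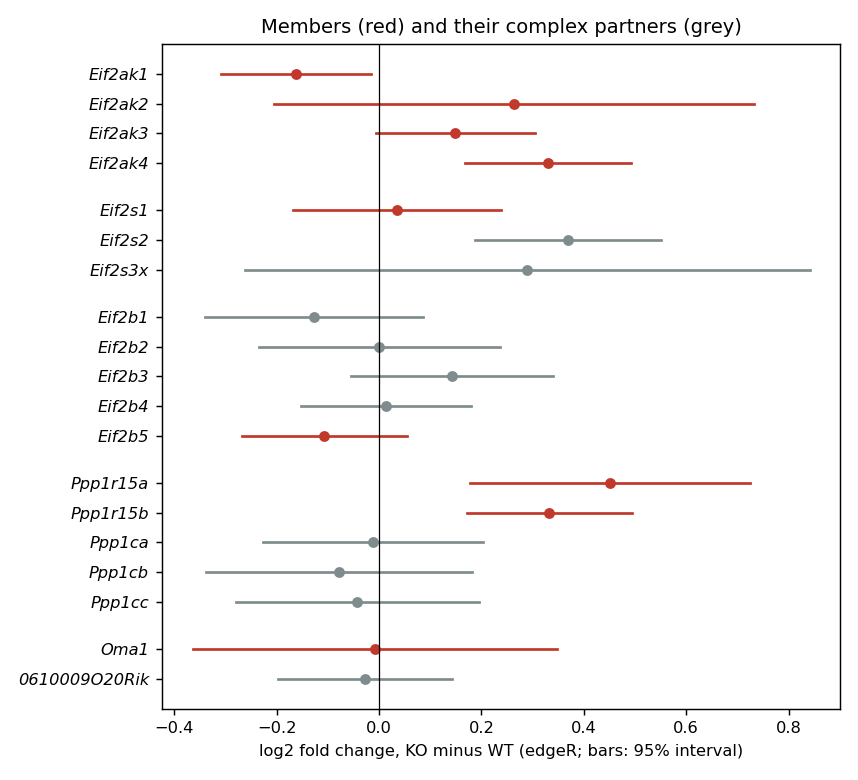
Log2 fold change of KO minus WT by edgeR (horizontal axis, points) with 95% intervals (bars) for the 9 genes (red) and the genes of the same complexes (grey), grouped by role. The intervals of Ppp1r15a, Ppp1r15b, Eif2ak4 and Eif2s2 lie above 0 and that of Eif2ak1 below 0, before adjustment for the number of genes tested.

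On the TPM scale the order of the 9 levels was nearly the same in both groups. In KO it ran from Eif2b5 (71.6 ± 1.49 TPM, SD) through Eif2ak1 (64.2 ± 1.57), Ppp1r15b (61.4 ± 2.05), Eif2s1 (56.8 ± 2.83), Eif2ak3 (27.4 ± 1.24), Eif2ak4 (24.6 ± 1.54), Ppp1r15a (19.3 ± 1.34) and Oma1 (9.54 ± 0.721) to Eif2ak2 (6.39 ± 1.11). In WT it ran from Eif2b5 (78.4 ± 4.52 TPM, SD) through Eif2ak1 (73.0 ± 1.90), Eif2s1 (56.4 ± 4.42), Ppp1r15b (49.6 ± 2.80), Eif2ak3 (25.3 ± 0.544), Eif2ak4 (19.8 ± 0.400), Ppp1r15a (14.3 ± 1.61) and Oma1 (9.76 ± 1.22) to Eif2ak2 (5.42 ± 0.989). Ppp1r15b stood above Eif2s1 in KO and below it in WT, but in both groups the libraries of these neighbours overlapped. In KO the libraries of Eif2ak1 and Ppp1r15b, and of Eif2ak3 and Eif2ak4, also overlapped, whereas in WT these levels were apart.

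Genes that work with these 9 were counted in lists by role, chosen with earlier results of these data known. Of 100 tested list genes besides the 9, edgeR called 9, all higher in KO, and 8 of them belong to the outputs of ATF4, the transcription factor whose translation rises when eIF2 alpha is phosphorylated. Of the 16 tested genes of that list, which counts Atf4 itself beside its outputs, 8 rose and 0 fell by edgeR. All 16 had a positive log2 fold change, with a median of 1.17 and a range of 0.29 to 4.13. The median over all tested genes was -0.000767. At an unadjusted edgeR p below 0.05, 14 of the 16 were higher and 0 lower, and DESeq2 called 13 higher and 0 lower. Over all genes the shares higher in KO were 0.511% for edgeR calls, 10.3% at that unadjusted p and 4.95% for DESeq2 calls. Trib3, a pseudokinase that restrains ATF4, rose by 4.13 ± 0.38 on the log2 scale, Chac1, which degrades glutathione, by 2.99 ± 0.21, and Eif4ebp1, a repressor of cap-dependent translation, by 2.51 ± 0.15 (SE; edgeR adjusted p 0.00851, 0.00254 and 0.00197). Atf4 itself was at 170, 159 and 156 CPM in KO, against 123, 101 and 101 CPM in WT. The Atf4 groups did not overlap, with a log2 fold change of 0.57 ± 0.10 (SE; edgeR adjusted p = 0.0588, DESeq2 8.22e-05). Ddit3, which encodes the ATF4-induced factor CHOP and helps switch on Ppp1r15a, was at 16.2, 13.9 and 13.6 CPM in KO, against 6.22, 6.20 and 6.44 CPM in WT, a rise of 1.22 ± 0.11 on the log2 scale (SE; edgeR adjusted p = 0.00751).

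The other lists held few or no edgeR calls. Among 14 tested regulators of the kinases, Map3k20, which encodes the ribosome collision kinase ZAK, rose, at 34.3, 32.1 and 38.2 CPM in KO, against 23.1, 19.3 and 21.96 CPM in WT (log2 fold change 0.70 ± 0.10 SE; edgeR adjusted p = 0.0456). The median of that list was -0.03. In it 2 genes were higher and 2 lower at an unadjusted edgeR p below 0.05, and DESeq2 called 2 higher and 2 lower. Its member Tarbp2, an inhibitor of Eif2ak2, was at 17.2, 17.5 and 17.3 CPM in KO, against 22.4, 21.1 and 21.3 CPM in WT, without overlap (log2 fold change -0.32 ± 0.07 SE, adjusted p 0.105 by edgeR and 0.00385 by DESeq2). DESeq2 also called Hsp90ab1 (log2 fold change 0.31) and Fbxo22 (-0.26) in this list, while Prkra and Dnajc3 were at 0.04 and 0.01. By edgeR, 0 genes were called among 16 of eIF2, eIF2B and cofactors (median log2 fold change 0.02), 7 phosphatase 1 partners with Ppp1r15a and Ppp1r15b included (-0.01), 14 genes around Oma1 and the inner mitochondrial membrane (-0.01), 15 genes of the other branches of endoplasmic reticulum stress (0.02) and 12 interferon response genes (0.01). In these same lists an unadjusted edgeR p below 0.05 was reached by 1 higher and 1 lower, 2 higher and 0 lower, 1 higher and 0 lower, 2 higher and 2 lower, and 0 higher and 1 lower. DESeq2 called 1 higher and 0 lower, 2 higher and 0 lower, 1 higher and 0 lower, 2 higher and 0 lower, and 0 higher and 1 lower. In the phosphatase list the 2 higher were Ppp1r15a and Ppp1r15b themselves by both tests. Over all genes 10.3% were higher and 9.31% lower at an unadjusted edgeR p below 0.05, and DESeq2 called 4.95% higher and 4.17% lower. With libraries scaled to their totals alone the medians of the phosphatase, kinase regulator and Oma1 lists turned positive, at 0.05, 0.03 and 0.06. Of 14 immediate early genes, edgeR called only Atf3, which is also an ATF4 output, with all 14 higher and a median of 0.55. In that list 6 were higher and 0 lower at an unadjusted edgeR p below 0.05. DESeq2 called 2 higher and 0 lower, Atf3 and Egr2.

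**Figure D4:**
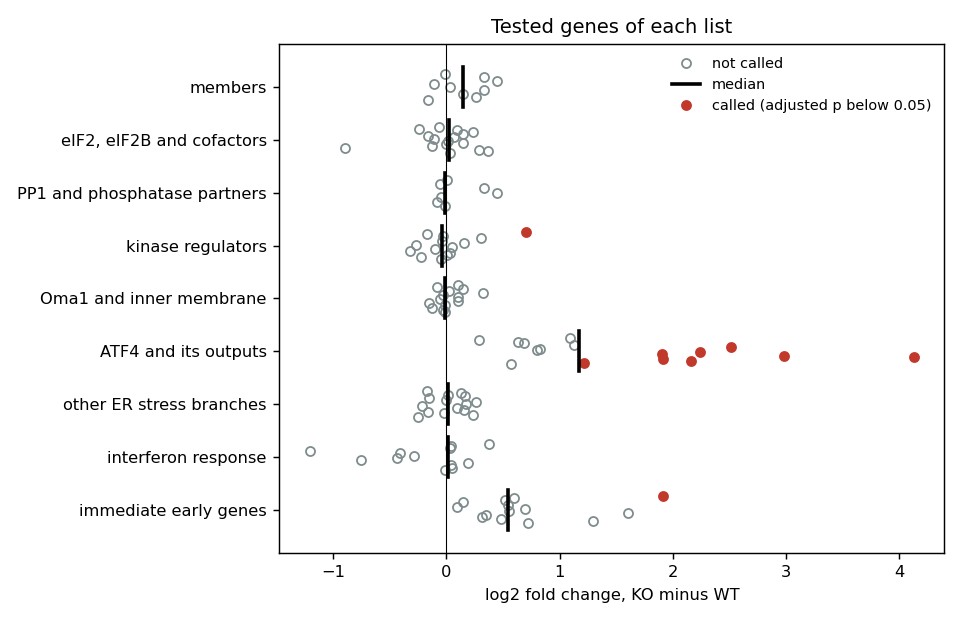
Log2 fold change of KO minus WT (horizontal axis) of every tested gene in each list (rows), with calls at an edgeR adjusted p below 0.05 filled red, other genes open, and the median as a bar. Atf4 and its outputs lie to the right of the other lists, with a median of 1.17 against 0.15 for the 9 genes described here.

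The genes whose profile over the 6 libraries was most like each of the 9 were found by the root mean square difference of gene-centred log2 CPM among 11418 genes. Ppp1r15b was closest to Hsp90ab1, a cytosolic chaperone (0.0159), and Mfsd2a, a lipid transporter of the blood-brain barrier (0.0190). Eif2ak4 was closest to Zfp7 (0.0162) and Eprs, a tRNA synthetase (0.0237), and Eif2ak1 to Daxx (0.0200) and Nfyc (0.0227). Eif2ak3 was closest to Slc17a5 (0.0153) and Slc25a28 (0.0183), Eif2s1 to Dclre1b (0.00993) and Chchd2 (0.0100), and Eif2b5 to Ercc3 (0.00553) and Acox3 (0.0130). Distances were larger for the genes with low counts or more spread: Ppp1r15a was closest to Babam2 (0.0452) and Gemin2 (0.0470), Oma1 to Cish (0.0412) and Tasp1 (0.0425), and Eif2ak2 to Lama1 (0.0376) and Nqo2 (0.0641).

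Under 19 other tests, scalings, filters and left-out libraries the log2 fold change ranged over 0.40 to 0.58 for Ppp1r15a, 0.29 to 0.40 for Ppp1r15b, 0.25 to 0.40 for Eif2ak4 and -0.20 to -0.10 for Eif2ak1. Each of the first 3 was called under 1 of the 19, DESeq2 on all 6 libraries, and Eif2ak1 under 0. The adjusted p-values ran over the 19 (edgeR, limma and DESeq2) between 0.0143 and 0.989 for Ppp1r15a, 0.00410 and 0.989 for Ppp1r15b, 0.00484 and 0.989 for Eif2ak4, and 0.148 and 0.989 for Eif2ak1, the highest with the midbrain score as a covariate.

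**Figure D5:**
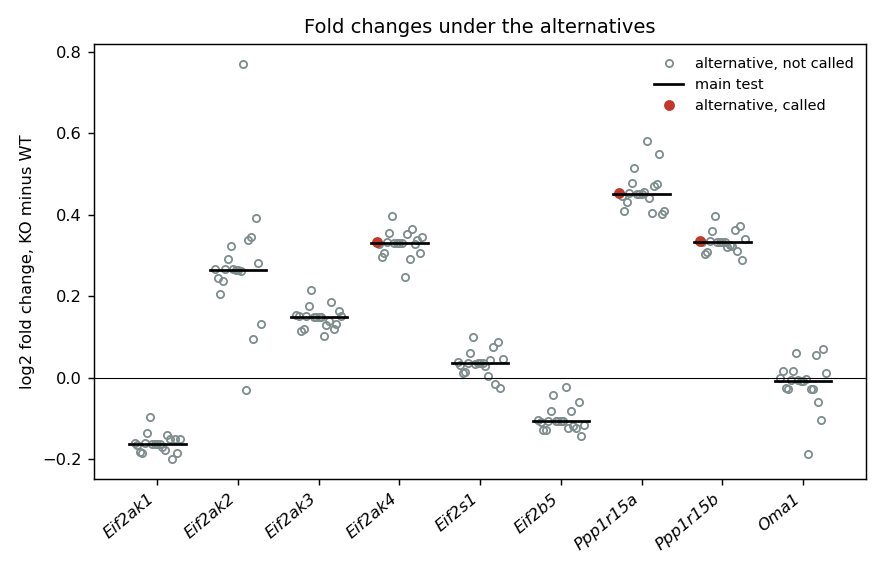
Log2 fold change of KO minus WT (vertical axis) of each of the 9 genes under the 19 alternative tests, scalings, filters and left-out libraries (open circles, filled red where called) and under edgeR as reported (bar). Eif2ak4, Ppp1r15a and Ppp1r15b stay above 0 and Eif2ak1 below 0 under all 19, while Eif2ak2, Eif2s1 and Oma1 cross 0.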

How the data were processed

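Per the labels' protocols, Trizol RNA of frozen brains went into stranded KAPA mRNA libraries. Tools in the submitters' processing notes are RSEM 1.2.28, STAR 2.5.3a, Trimmomatic and FastQC, with build GRCm38 (mm10). Each deposited table holds an expected count, a TPM and a mean transcript length per gene, per the file headers. In every library 98.9% to 99.0% of deposited expected counts were whole (tolerance 0.005). They were rounded and tested with edgeR (version 4.0.16: filterByExpr, TMM, robust quasi-likelihood F test, two-sided), adjusted by Benjamini and Hochberg over 15848 genes, and called at an adjusted p below 0.05. DESeq2 (version 1.42.0) and limma (version 3.58.1) gave alternatives. The SE given with edgeR's values was derived as the absolute log2 fold change over the square root of its F statistic. Intervals are edgeR's estimate ± this SE times the t quantile. TPM, as deposited by the authors, served for shares and orders. Scripts were tested on simulated counts, with fold changes larger than those of the genes described here. That test does not show what can be detected at the sizes reported. The edgeR p-values set the difference between genotypes against the spread between these animals, moderated over all tested genes. Litter and sex were not modelled.

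The members and the gene lists were chosen with earlier results of these data known. Named genes are the 9, E4f1, up to 3 called genes of a list by fold change, Atf4, Ddit3, the partner subunits except Eif2s3x and Eif2s3y, and the 2 genes most like each member (mean CPM of at least 5). Eif2s3x, Eif2s3y, Dele1, Tarbp2, Fbxo22, Prkra, Dnajc3, single immediate early genes, the overlapping neighbours and single cell type markers were named after their values were seen. Coordinates are RefSeq's (GRCm38.p6) and exon overlaps GENCODE's (vM21).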

Additional observations from a re-analysis of the deposited data

How the results depend on the processing

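The 9 genes were compared under 19 alternatives. The count of all genes called was 159 by edgeR, 1444 by DESeq2, 245 by limma on TPM with a pseudocount of 1 and 248 with 0.1, and 36 to 82 by edgeR with any 1 library left out. It was 0 with the midbrain score as a covariate (741 at an unadjusted p below 0.05) and 0 with KO 1, KO 2, WT 1 and WT 2 only (1546 at an unadjusted p below 0.05). The midbrain score separates KO from WT, and how much the fit with it has left from which to estimate genotype was not measured. With 1 library left out, a setting chosen after seeing the data, DESeq2 called 506 (without KO 1), 1688 (KO 2), 678 (KO 3), 1411 (WT 1), 1486 (WT 2) and 900 (WT 3) genes. Of the 9 genes, edgeR called 0 and DESeq2 3, or 0 to 3 with 1 library left out. Of the 100 list genes, edgeR called 9, DESeq2 23, and edgeR 0 with the midbrain covariate, 0 with those 4 libraries, and 5 to 8 with 1 library left out. Over all genes edgeR called 1.003% and DESeq2 9.12%. With the replicate block 66 genes were called, 24 higher and 42 lower, and 0 of the 9. The deviations of same-numbered libraries correlated at 0.131, 0.174 and 0.001, not above 0.1 in every pair, so the fit without the block was kept. KO 1 and KO 2 correlated best with their own number and KO 3 with WT 1 (0.019), and the block gave 3845 genes at an unadjusted p below 0.05, against 3106 without it. Scaling by library totals gave 123 higher and 63 lower, against 81 and 78 by TMM. The sign turned for Eif2ak2 (-0.030 with those 4 libraries), for Eif2s1 (-0.026 to 0.087 with 1 library left out) and for Oma1 (0.017 by limma-voom, 0.017 by upper quartile, 0.059 by library totals, and -0.10 to 0.071 with 1 library left out). The cause was not tested. Kinase shares and both ratios kept their direction in CPM and with each library left out. With 3 animals per group, a log2 fold change of 0.33 such as that of Eif2ak4 has a 95% interval of 0.17 to 0.49.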
